A study of Mus musculus with 12 samples.

Results

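The Havcr2-positive non-cycling CD8 T cells of MC38 tumors are 409 cells, 10.6% of the 3870 CD8-gated cells (95% exact Clopper-Pearson interval 9.62 to 11.6%) and 0.317% of the 128912 CD45+ cells kept. They were chosen by unique molecular identifier (UMI) counts: at least 1 UMI of Cd3d, Cd3e or Cd3g, at least 1 of Cd8a or Cd8b1, none of Cd4, Adgre1 or Csf1r (the CD8 gate), at least 1 UMI of Havcr2, and none of Tcf7, Mki67 or Top2a. These 12 genes chose the cells, so their levels are given as a description only. The tumors grew under the skin of C57BL/6 mice that had all received MC38 cells, a mouse colon carcinoma line, on day 0. The mice were given vehicle or the EZH2 inhibitor PF-06821497 (100 mg/kg, subcutaneous, daily) from day 10 for 7 days or from day 1 for 16 days. There were 3 samples in each of the 4 groups, and the number of mice behind each sample is not given in the sources used here. Leukocytes were isolated with CD45 microbeads on day 17 for 10x Genomics 3' v3 libraries.

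Havcr2 encodes TIM-3, an inhibitory receptor. On CD8 T cells that meet tumor antigen for a long time it is carried together with PD-1 (Pdcd1) and LAG-3 (Lag3), and cells of this kind are known as terminally exhausted when they have lost TCF-1, the product of Tcf7, which marks the progenitor cells that renew the pool. Such cells can still hold granzymes and perforin, the proteins with which cytotoxic T cells kill. TIM-3 is also found on macrophages and dendritic cells, and the alpha chain of CD8 is found on a subset of dendritic cells as well as on T cells.

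The barcodes carried a library number from 1 to 12 that the labels do not tie to a sample, so EZH2i and vehicle were not compared. The data were treated as 1 pooled sample with no test between groups. Values of single libraries are given as lowest, median and highest, intervals cover counting error only, and folds have no p. Depth was uneven, with library medians of 2291 to 15081 UMIs per kept cell. Of the 138353 distinct barcode sequences, 1.63% were found in more than 1 library. Of the 408 sequences of the Havcr2-positive non-cycling cells, 1 was found in such cells of more than 1 library. Whether the others also occur among all barcodes of another library was not counted, so these values cannot be compared. Libraries 1 to 6 held Y-linked transcripts and libraries 7 to 12 did not, although the methods describe female mice.

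The 409 cells came mainly from 8 libraries with 21 to 102 of them each, 400 cells in all, while the other 4 libraries gave 9. In the 8 libraries they made up 8.50% (library 9) to 18.2% (library 3) of the CD8-gated cells, at a median of 11.3%. The shares were lower in library 10 (2.63% of 76 CD8-gated cells), library 11 (3.33% of 120) and library 12 (3.92% of 51). Library 4 had 11.1% of 9 cells. These 4 shares rest on 1 to 4 Havcr2-positive cells each. The intervals of library 3 (13.4 to 23.8%) and library 6 (7.48 to 10.9%) did not overlap. The gate was set by single molecules: 297 of the cells (72.6%) had 1 UMI of Havcr2, just inside the limit, 71 had 2, and 41 had 3 or more (29 had 3, 8 had 4, 3 had 6 and 1 had 7). Just outside the limit were 2042 CD8-gated cells that met every other criterion and had no Havcr2 UMI, called Havcr2-negative counterparts here. Depth differed between these sets, with a median of 4237 UMIs in the Havcr2-positive cells, 2116 in their counterparts and 2800 in all 3461 remaining CD8-gated cells. The Havcr2-positive cells had the higher median in 10 of 12 libraries. When each cell was thinned to 1000 UMIs before gating, 177 of 3552 cells passed, and the 8 libraries then gave shares of 1.26% (library 8) to 8.73% (library 3), at a median of 5.05%. Library 8 had the lowest share after thinning and 11.3% before it, so the order of the libraries changed with thinning. Among 212 B cells, which should lack the gene, 4 had a Havcr2 UMI (1.89%, 0.516 to 4.76%) at a median depth of 1369 UMIs. Among the remaining CD8-gated cells 344 had (9.94%, 8.96 to 11.0%). The B cells were chosen for UMIs of Cd79a and Ms4a1 and for no UMI of any gene of the CD8 gate. That choice left out B cell barcodes with T cell or macrophage RNA of these genes, so low shares were partly set in advance.

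**Figure D1:**
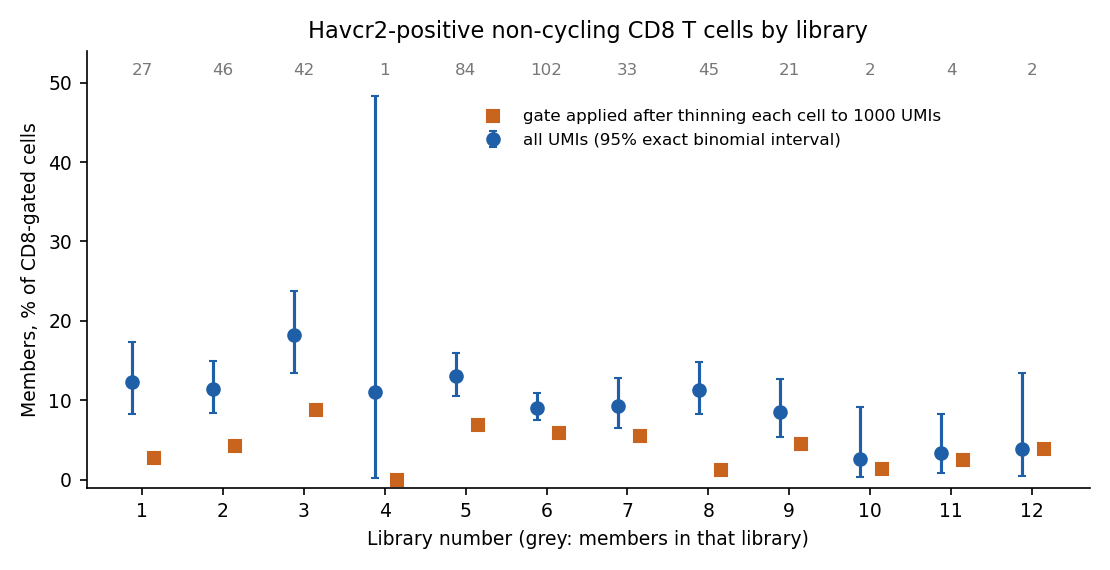
Share of Havcr2-positive non-cycling cells among the CD8-gated cells of each library (y axis, percent), with all UMIs (circles, 95% exact binomial interval) and with the gate applied after each cell was thinned to 1000 UMIs (squares); the number of cells is in grey. Library 3 had the highest share both ways, at 18.2 and 8.73%, and library 8 fell from 11.3 to 1.26%.

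As a check of the identity, Pdcd1, which the gate did not use, had a UMI in 58.2% of the cells (53.2 to 63.0%), against 44.0% of the remaining CD8-gated cells (42.4 to 45.7%) and 0.472% of the B cells. After thinning to 1000 UMIs, the share was 28.8% (24.3 to 33.5%) against 21.1% (19.7 to 22.5%). The T cell receptor constant gene Trac had a UMI in 72.4% of the cells, 66.3% of the remaining CD8-gated cells and none of the 212 B cells (exact interval up to 1.72%). After thinning, the Trac shares of the first and second were 37.9 and 38.3%. The B cell shares of Pdcd1 and Trac are a description only, because those cells were chosen to have no CD3 or CD8 UMI.

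A subset of the cells went against a T cell identity. In 95 of the 409 cells (23.2%, 19.2 to 27.6%), more than 1% of the UMIs were of the MHC class II genes H2-Aa, H2-Ab1, H2-Eb1 and Cd74, which professional antigen-presenting cells use to show peptides to CD4 T cells, against 321 of 3461 remaining CD8-gated cells (9.27%, 8.33 to 10.3%). Only 12 cells lay between 0.5 and 1%. Library 6 held 53 of these 95 cells, which was 52.0% of its 102 Havcr2-positive cells, library 5 held 25 (29.8% of 84), and the other libraries held 17 of 223 (7.62%). Within libraries the subset was deeper, with a higher median UMI count than the other Havcr2-positive cells in 7 of the 7 libraries that had both. In library 6 the medians were 3190 and 1399 UMIs, in library 5 they were 5861 and 3317, and the ratio of the medians over the 7 libraries was 1.25 to 2.29. The pooled medians, 4269 UMIs against 4230 in the other 314 cells, did not show this, and the part of depth in the split was not tested. Havcr2 stood at 319 and 296 CPM (counts per 1000000 UMIs). The sum of Trac, Trbc1 and Trbc2 was 700 CPM in the 95 cells and 2679 CPM in the 314, and at least 1 UMI of these genes was found in 83.2 and 98.1% of the cells.

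The 95 cells had high levels of dendritic cell genes. Xcr1, the chemokine receptor of cross-presenting dendritic cells, stood at 126 CPM in them and had no UMI in the other 314. Clec9a, a receptor for dead cells on the same dendritic cells, was at 70.4 against 0.689 CPM (34 UMIs against 1), and Itgax, which encodes CD11c, was at 193 against 12.4 CPM. Cst3, a protease inhibitor abundant in dendritic cells, stood at 11354 against 420 CPM. The macrophage genes were also higher there, with C1qa, a complement subunit, at 934 against 188 CPM and Lyz2, lysozyme, at 1230 against 347 CPM. T cell genes went the other way: Cd8b1 stood at 232 against 638 CPM, Gzmb at 253 against 1028 CPM, and Lag3 at 22.8 against 181 CPM. At least 1 UMI of Xcr1, Clec9a, Itgax, Flt3 or Cd209a was found in 63 of the 95 cells (66.3%) and in 17 of the 314 (5.41%). These traits were not particular to the Havcr2-positive cells. In the 321 remaining CD8-gated cells over 1%, Xcr1 stood at 92.4 CPM, Clec9a at 41.5, Itgax at 108 and Cst3 at 9152 CPM. The sum of Trac, Trbc1 and Trbc2 was 776 CPM in them, and library 6 held 243 of the 321. Whether the cells over 1% are doublets, dendritic cells with captured T cell RNA or T cells was not tested. The counts of genes called are therefore given with all cells and without the cells over 1%, a limit set after the values were seen. Values of single genes are those without these cells where not stated otherwise, with the all-cell value for the genes that the results turn on.

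**Figure D2:**
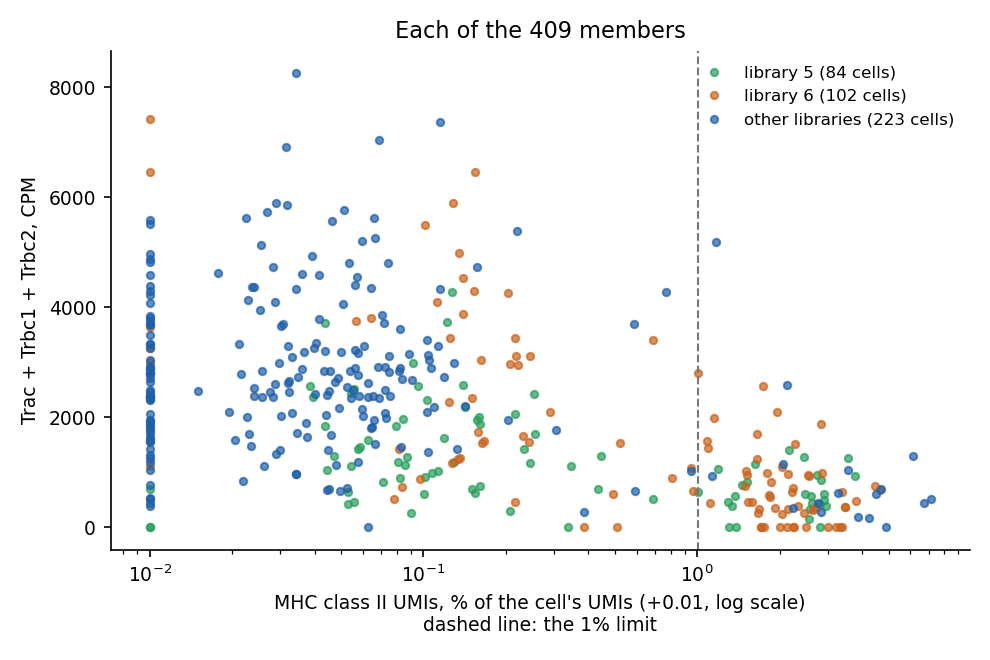
Each point is 1 of the 409 cells, with the share of its UMIs on 4 MHC class II genes (x axis, percent plus 0.01, log scale) and the summed level of Trac, Trbc1 and Trbc2 (y axis, CPM). The 95 cells to the right of the dashed line at 1% are mostly from libraries 5 and 6 and have low T cell receptor levels.

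Other genes were described by the library-matched fold, the UMIs observed in the Havcr2-positive cells over those expected if they had the CPM of the comparison cells of the same library. A gene was called when the fold was at least 1.5 in either direction and every library with at least 20 cells of both kinds had the same direction; only genes of at least 10 CPM were considered, and the genes of the gate were left out. Against the remaining CD8-gated cells, 23 of 7484 genes were higher (0.307%) and 223 were lower (2.98%) over 8 libraries. The higher count moved with single libraries and with thinning: it was 41 without library 3 or library 7, 66 without library 8, and 12 when each cell was thinned to 1000 UMIs. Without the cells over 1% MHC class II, the comparison had 314 against 3140 cells in 7 libraries, and 20 of 7406 genes were higher (0.27%) and 238 lower (3.21%). Here too the higher count moved with single libraries, to 38 without library 3, 31 without library 5 or library 7, and 48 without library 8. The 2 sets shared 6 of the higher genes, 26.1% of the first and 30.0% of the second, and 164 of the lower genes, 73.5 and 68.9%. The median fold over all genes was 0.982 in both. Most of the higher genes had few UMIs: with a minimum of 50 CPM, 6 of the 23 remained, which were Mt1, Aif1, Napsa, Lamp2, Alox5ap and Gsn.

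The highest folds with all cells were those of Gm6377 (2.57, 72 UMIs), Gsn (2.36), Gpr35 (2.24, 40 UMIs), Themis2 (2.20, 34 UMIs), Fcrl6 (2.08), Napsa (2.07), Tcn2 (2.05), Csf1 (1.98), Alox5ap (1.95), Hfe (1.92), Myo1c (1.91), Frmd4a (1.89), Aif1 (1.85), Irf5 (1.79) and Stx7 (1.74). Aif1 encodes IBA1, Alox5ap an activator of leukotriene synthesis, and Irf5 a transcription factor of interferon responses. None of 20 macrophage and monocyte markers and none of 8 dendritic cell markers was called in this comparison, where 0.307% of all genes were called higher. Their median folds were 1.54 and 2.28, against 0.982 for all genes. All 20 macrophage and monocyte markers were above 1, and 11 had a fold of at least 1.5. Of the 8 dendritic cell markers, 6 had a fold of at least 1.5 and 1 was at or under 1/1.5. Gsn, which encodes the actin-severing protein gelsolin, stood at 352 CPM in the 95 cells over 1% MHC class II and at 29.6 CPM in the other 314. Without the former, Fcrl6, Csf1, Frmd4a, Mt1, Cd244 and Lamp2 were the genes still called, and Hfe had a fold of 0.912 on 4 UMIs. Fcrl6, Csf1 and Mt1 were called higher in each of the 4 comparisons made here.

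The lowest folds were those of genes of the cell cycle, which the gate on Mki67 and Top2a left out of the Havcr2-positive cells but not out of the comparison cells. Of 20 such genes, 15 were called lower, where 2.98% of all genes were, and none higher, with a median fold of 0.315. The 15 lowest of all genes (Esco2, Ska1, Shcbp1, Ccna2, Plk1, Cdca5, Sgo2a, Foxm1, Mxd3, E2f7, Kif4, Ndc80, Pbk, Hist1h2an and Spc25) had 1 to 3 UMIs each. Ccna2, which encodes cyclin A2, had 3 UMIs against 101 expected (fold 0.0297, 0.00613 to 0.0868). The comparison with the 2042 Havcr2-negative counterparts, which are non-cycling and Tcf7-negative as well, applies these criteria to both sides. At the lower depth of the counterparts (median 2116 against 4237 UMIs), having no UMI is a weaker criterion. In this comparison 55 of 7374 genes were higher (0.746%) and 65 lower (0.881%). Without the cells over 1% MHC class II, with 314 against 1881 cells, 39 of 7281 genes were higher (0.536%) and 98 lower (1.35%). Without library 8 these counts were 75 and 171, and without library 6 the lower count was 167. None of 16 cell cycle genes was called in it. All 16 had a fold above 1 and 3 had a fold of at least 1.5, with a median of 1.26 against 0.998 for all genes. The Havcr2-positive cells enter every comparison, so the values below are set side by side and are not independent of each other.

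Of the inhibitory receptor genes, Cd244 was called higher both with all cells and without those over 1% MHC class II, and Lag3 only without them. Lag3, which encodes a receptor that binds MHC class II, stood between 107 and 327 CPM in 7 libraries (median 164) against 62.3 to 148 CPM in the remaining CD8-gated cells (median 94.6), and the fold was 1.86 (1.64 to 2.1), higher in 7 of 7 libraries although the ranges overlapped. The fold was 1.77 against the Havcr2-negative counterparts, and 1.54 with all cells, where only 6 of 8 libraries were higher and the gene was not called. Cd244, which encodes the receptor 2B4, had a fold of 1.62 (1.28 to 2.01) with all cells and 1.78 without the cells over 1% (7 of 7 libraries). It was 1.55 against the counterparts, higher in 6 of 7 libraries. Pdcd1 stood between 203 and 438 CPM (median 350) against 233 to 341 CPM (median 287), so the ranges overlapped, and its fold of 1.26 (1.15 to 1.37) was seen in 5 of 7 libraries. With all cells it was 1.11 in 6 of 8. Ctla4, which encodes a competitor of CD28, had a fold of 1.43 in 6 of 7 libraries (1.34 with all cells, 7 of 8), and Entpd1, which encodes the ectonucleotidase CD39, 1.4 in 6 of 7 (1.45 with all cells, 6 of 8). Of 13 inhibitory receptor genes considered, 2 were called higher, where 0.27% of all genes were, and none lower. Of the 13, 12 had a fold above 1, with a median of 1.27 against 0.982 for all genes.

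**Figure D3:**
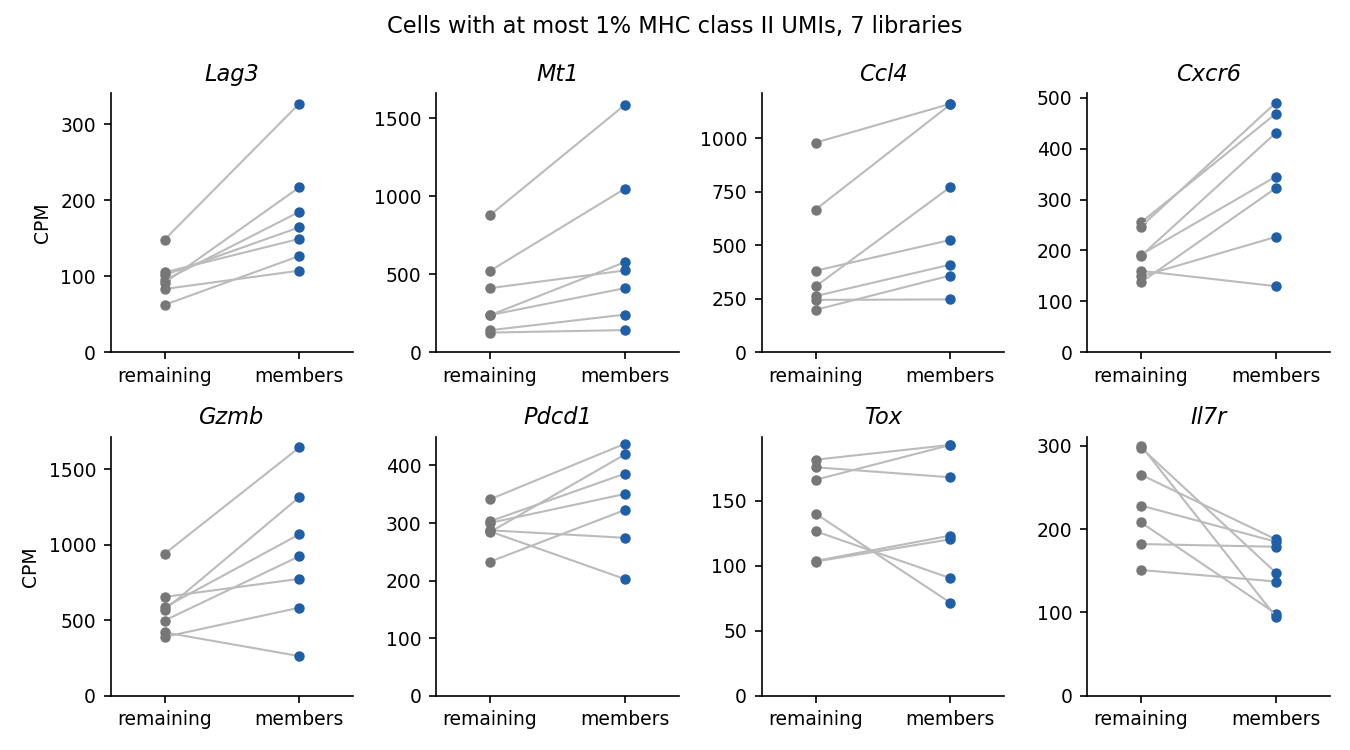
Level of 8 genes (y axes, CPM) in the remaining CD8-gated cells and in the Havcr2-positive non-cycling cells of the same library, for cells with at most 1% MHC class II UMIs; each line is 1 of 7 libraries. Lines for Lag3, Mt1 and Ccl4 rise in 7 of 7 libraries, those for Il7r fall in 7 of 7, and those for Tox go both ways.

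None of 19 exhaustion and effector transcription factors was called in any of the 4 comparisons, where 0.27 to 0.746% of all genes were called higher. The share of all genes called lower was 0.881 to 3.21%. Without the cells over 1% MHC class II, 17 of the 19 were above 1 against the remaining cells, with a median of 1.17 (0.982 for all genes). Against the counterparts 16 of the 19 were above 1, with a median of 1.12 (0.998 for all genes). Tox, a driver of the exhausted state, stood at 152 CPM against 143 CPM, with a fold of 1.04 (0.911 to 1.19), higher in 4 of 7 libraries, and at 0.977 against the counterparts. With all cells the fold was 0.931. Id2 and Bhlhe40, regulators of effector and tissue-resident T cells, were above 1 in every library but under the limit, at 1.30 and 1.24. Irf4, induced by T cell receptor signals, had a fold of 1.65 in 5 of 7 libraries (1.47 with all cells, 6 of 8) and was not called. Eomes, a transcription factor of effector and exhausted CD8 T cells, had a fold of 0.90 and was higher in 4 of 7.

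None of 16 granule genes was called in either direction, where 0.27% of all genes were called higher and 3.21% lower. Of the 16, 12 had a fold above 1, 6 had a fold of at least 1.5 and 1 was at or under 1/1.5. Their median was 1.24 against 0.982 for all genes, while levels were uneven between libraries and cells. Gzmb, which encodes granzyme B, stood between 262 and 1646 CPM (median 924) against 390 to 941 CPM (median 568), with a fold of 1.68 (1.59 to 1.77) in 6 of 7 libraries and 1.45 with all cells (7 of 8). Prf1, which encodes perforin, had a fold of 1.68 in 5 of 7 libraries and 1.49 with all cells (5 of 8). Gzmc, Gzmd, Gzme and Gzmf, a cluster of granzymes of strongly activated T cells, had folds of 2.45, 3.61, 2.31 and 2.49 over the summed UMIs. A few cells carried them: the 10 cells with most UMIs held 85.7% of the Gzmd UMIs, 87.3% of those of Gzme, 63.6% for Gzmc and 61.0% for Gzmf, with 338 Gzmf UMIs in a single cell. For Gzmb the 10 highest cells held 22.4%, for Lag3 19.4% and for Pdcd1 17.7%. Gzmf went from no UMI in 1 library to 4649 CPM in another. The fold of Gzmd was 5.87 without library 3 and 3.07 without library 2. Gzmk, a granzyme of less differentiated cells, stood between 4.42 and 600 CPM (median 57.5) against 52.4 to 566 CPM (median 106), with a fold of 0.887, lower in 6 of 7 libraries. Against the Havcr2-negative counterparts its fold was 0.731, lower in 7 of 7 libraries and under the limit for a call. Without library 8, which gave 199 of the 280 Gzmk UMIs, that fold was 0.487. Gzma had a fold of 0.586 but was higher in 3 of 7 libraries.

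Of 12 cytokine and chemokine genes, 2 were called higher, Csf1 and Ccl4, and none lower, where 0.27% of all genes were called higher. The call of Ccl4 was lost without library 9, which left Csf1. The median fold of the 12 was 1.45 against 0.982 for all genes. Csf1, the growth factor of macrophages, rested on 54 UMIs, with a fold of 2.0 (1.5 to 2.60) in 7 of 7 libraries, and 1.98 with all cells. Ccl4, a chemokine of activated CD8 T cells, stood between 246 and 1161 CPM (median 524) against 198 to 979 CPM (median 307), a fold of 1.61 in 7 of 7 libraries. Library 9, which has too few of these cells to count among the 7, gave 135 of the 1092 Ccl4 UMIs, and without it the fold was 1.45, under the limit. Ccl4 was not called with all cells or against the counterparts. In library 1 it stood at 246.5 against 244.3 CPM here, but at 215.8 against 243.0 CPM with all cells and at 246.5 against 264.6 CPM against the counterparts. The 10 cells with most UMIs held 52.0% of its UMIs. Its relative Ccl3 had a fold of 2.71 in 6 of 7 libraries and was called against the Havcr2-negative counterparts, at 3.97 (3.60 to 4.37) in 7 of 7. The 10 cells with most UMIs held 66.7% of the Ccl3 UMIs. Ifng, which encodes interferon gamma, had a fold of 2.40 (2.14 to 2.70, counting error only) in 5 of 7 libraries and was not called. Library 5 gave 152 of its 295 UMIs, and without that library the fold was 1.44. Ifng had 62.4% of its UMIs in 10 cells, and at least 1 UMI was found in 22.6% of the cells. That share was 9.40% after thinning (6.33 to 13.3%) against 5.42% of the remaining cells (4.62 to 6.32%), with intervals that all but touched. With all cells it was 8.14% (5.64 to 11.3%) against 5.06% (4.33 to 5.89%), and the intervals overlapped.

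Of 14 genes of memory and naive T cells considered, 3 were called lower and none higher, where 3.21% of all genes were called lower. The fold was above 1 for 1 of the 14, and their median was 0.629 against 0.982 for all genes. The gate left Tcf7-positive cells out of the Havcr2-positive cells but not out of the remaining cells. Low folds of this list against the remaining cells may therefore partly follow from the gate. Il7r, which encodes the receptor for the survival cytokine IL-7, stood between 94.7 and 188 CPM (median 148) against 151 to 300 CPM (median 228), a fold of 0.59 (0.515 to 0.673), lower in 7 of 7 libraries. Foxp1, a transcription factor that keeps T cells quiescent, had a fold of 0.56, and Dapl1, a gene of naive and memory CD8 T cells, had 3 UMIs against 21 expected (0.146, 0.0301 to 0.426, and 0.0579 without library 5). With all cells Klf2, a factor that drives genes of recirculation, was called at 0.416 (8 of 8 libraries) and Il7r was not (0.613, 7 of 8). Slamf6, a surface marker of progenitor exhausted cells, stood at 26.2 against 39.5 CPM (fold 0.669, lower in 6 of 7 libraries), and was called only against the Havcr2-negative counterparts, at 0.588 (0.416 to 0.808). Library 8 gave 26 of the 38 Slamf6 UMIs, and without it these folds were 0.380 and 0.320. When that comparison was also matched by depth, the Slamf6 fold was 0.831 and the fold of Il7r was 0.593. Without depth matching, 3 of 13 genes of the list were called lower against the counterparts, which have no Tcf7 UMI either, and none higher. Of all genes, 1.35% were called lower there. The median of the 13 was 0.611 against 0.998 for all genes.

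Homing genes divided. Cxcr6, a chemokine receptor of tissue-resident cells, stood between 130 and 490 CPM (median 345) against 137 to 255 CPM (median 189), with a fold of 1.78 in 6 of 7 libraries (1.58 with all cells, 7 of 8), and was not called. Cxcr3, a receptor for interferon-induced chemokines, was called lower in each of the 4 comparisons, at 0.538 (0.377 to 0.744) without the cells over 1% MHC class II. Itgae encodes CD103 and is found on tissue-resident T cells and on some dendritic cells. It changed direction with the MHC class II limit, from a fold of 1.85 with all cells to 0.231 without those over 1%, where 5 UMIs were left. The latter fold was 0.0992 without library 7 and 0.414 without library 8. S1pr1, needed to leave tissues, had a fold of 0.446, lower in 6 of 7 libraries.

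Mt1 was higher in each of the 4 comparisons. It encodes a metallothionein, a small protein that binds zinc and is induced by metals and stress. It stood between 142 and 1587 CPM (median 524) against 126 to 879 CPM (median 238), a fold of 1.83 (1.71 to 1.95) in 7 of 7 libraries, 1.63 with all cells and 1.91 against the Havcr2-negative counterparts. A UMI of Mt1 was found in 32.6% of the cells after thinning (27.3 to 38.2%), against 19.0% of the remaining cells (17.6 to 20.5%) and 9.41% of the B cells (5.48 to 14.8%). Mt2 had a fold of 2.0 in 6 of 7 libraries and was not called.

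The 250 bases before the annotated starts of Havcr2 (chr11:46454681-46454930) and Mt1 (chr8:94178839-94179088), both on the plus strand of GRCm38.p6 in RefSeq, are shown because Havcr2 defined the cells and Mt1 was called higher in each comparison. Capitals mark matches to TGANTCA in Havcr2 and to TGCNCNC, a loose form of the core of the metal response element, in Mt1. Both strands were searched. TGANTCA is a loose form of the AP-1 site, which has C or G as its middle base.
Havcr2: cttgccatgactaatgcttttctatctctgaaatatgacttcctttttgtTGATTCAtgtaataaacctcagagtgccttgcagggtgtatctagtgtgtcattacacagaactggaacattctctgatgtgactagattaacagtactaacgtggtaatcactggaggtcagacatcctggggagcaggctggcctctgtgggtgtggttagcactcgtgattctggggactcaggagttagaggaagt
Mt1: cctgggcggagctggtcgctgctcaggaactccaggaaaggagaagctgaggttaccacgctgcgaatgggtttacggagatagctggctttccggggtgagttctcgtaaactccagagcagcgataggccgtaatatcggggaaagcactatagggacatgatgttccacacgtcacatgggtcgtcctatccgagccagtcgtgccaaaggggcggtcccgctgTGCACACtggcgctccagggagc
The match in Havcr2 starts at position -200 from the start and that in Mt1 at -23. The middle base of the Havcr2 match is T, so it fits the loose letters only and not the usual AP-1 site. Of 32851 promoters of this length, 6.75% hold the loose TGANTCA letters and 44.4% the loose TGCNCNC letters. The NFAT letters GGAAA, found in 55.6% of the promoters, have no match in this window of Havcr2. These matches describe the letters only.

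Genes of glycolysis were above 1 as a group. Of 18 considered, none was called against the remaining cells and 18 had a fold above 1, with a median of 1.22 (1.15 with all cells) against 0.982 for all genes. Against the Havcr2-negative counterparts 2 of the 18 were called higher, where 0.536% of all genes were. These were Pkm at 1.56 and Pgam1 at 1.54, which encode pyruvate kinase and phosphoglycerate mutase. The median of the 18 was 1.47 against 0.998 for all genes. When matched by depth as well, Pkm was at 1.46 and Pgam1 at 1.35, both under the limit. Pkm was also under it without library 2 (1.41), and Pgam1 without library 6 (1.49) or library 9 (1.48). Oxidative phosphorylation genes had a median of 1.01 and none of 17 was called. None of 18 interferon-stimulated genes was called, with medians of 0.969 and, against the counterparts, 0.792. Among 19 cytokine receptor and feedback genes, 1 was called against the counterparts, where 0.536% of all genes were called higher. This was Il2ra, which encodes the alpha chain of the IL-2 receptor, at 2.23 (1.84 to 2.67). It went against most of its list, in which 8 of the 19 had a fold above 1 and the median was 0.959.

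Ezh2, the catalytic subunit of polycomb repressive complex 2 and the target of the inhibitor, was lower against the remaining CD8-gated cells, at 37.8 against 95.5 CPM, with a fold of 0.39 (0.306 to 0.49), lower in 8 of 8 libraries with all cells. Without the cells over 1% MHC class II the fold was 0.447 (7 of 7). The remaining cells include cycling cells, in which Ezh2 stood at 147 CPM with all cells and at 154 CPM without those over 1%. Against the non-cycling Havcr2-negative counterparts, without the cells over 1% MHC class II, the fold was 0.983 (0.754 to 1.26), higher in 4 and lower in 3 of 7 libraries. Of 13 polycomb genes, Ezh2 alone was called against the remaining cells, where 2.98% of all genes were called lower (3.21% without the cells over 1%), and none against the counterparts. Suz12 and Eed, other core subunits of the complex, had folds of 0.812 and 0.837 against the remaining cells and 1.07 and 0.929 against the counterparts, without the cells over 1%. Of 11 genes of the BCL2 family, none was called without the cells over 1% MHC class II. Of all genes, 0.27% were called higher and 3.21% lower against the remaining cells, and 0.536 and 1.35% against the counterparts. Of the 11, 8 had a fold above 1 in each comparison, with medians of 1.13 and 1.17 (0.982 and 0.998 for all genes). Bcl2 and Bcl2l11 went the other way. Bcl2, an inhibitor of apoptosis, had a fold of 0.802 and, against the counterparts, 0.609 (lower in 6 of 7 libraries). With all cells it was called lower against the counterparts, at 0.563 in 8 of 8 libraries. Bcl2l11, which encodes the activator BIM, had folds of 0.883 and 0.795.

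Within the 314 cells, levels were set out by the number of Havcr2 UMIs, from 1881 counterparts with 0 to 242 cells with 1, 44 with 2 and 28 with 3 or more. Prf1 stood at 149, 233, 418 and 754 CPM along these steps, with intervals that did not overlap between neighbours. These intervals cover counting error and not the spread between cells, and 10 of the 314 cells held 33.1% of the Prf1 UMIs. Pdcd1 stood at 324, 332, 418 and 552 CPM, and the intervals of 1 UMI (298 to 370 CPM) and 3 or more (453 to 668 CPM) did not overlap. Gzmb was at 663, 1002, 1040 and 1146 CPM, where only the step from 0 to 1 was beyond counting error. With all cells these 3 genes were less ordered: Prf1 was at 140, 198, 264 and 523 CPM with overlapping intervals at 1 and 2 UMIs, Pdcd1 at 302, 294, 299 and 416 CPM, and Gzmb at 622, 862, 734 and 867 CPM. Cxcr6 was at 193, 316, 340 and 408 CPM, and Mt1 at 286, 618, 684 and 697 CPM. Other genes were not highest at the last step: Ccl4 was at 422, 843, 692 and 367 CPM, Gzmc at 150, 458, 565 and 305 CPM, and Ifng at 60.1, 186, 282 and 186 CPM. Klf2 fell from 145 to 65.1 CPM between 0 and 1 UMI, and 9 and 3 UMIs gave 34.8 and 15.5 CPM in the last steps. Tox stood at 150, 153, 151 and 145 CPM, with intervals that overlapped. Median depth moved along the same steps, from 2032 to 3954, 4894 and 5910 UMIs, and its part in these values was not tested. So did the share of cells from library 3, in which Prf1 was high (481 CPM in its remaining cells), from 4.73 to 9.92, 18.2 and 28.6%. Against the 0-UMI cells of the same library, the Prf1 fold was 1.48 (1.29 to 1.68) at 1 UMI, 2.76 (2.26 to 3.33) at 2 and 3.97 (3.35 to 4.67) at 3 or more. Without library 3 these folds were 1.54, 2.84 and 4.66. The matched Pdcd1 folds were 1.07, 1.25 and 1.64, and those of Mt1 were 1.91, 2.16 and 1.66.

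**Figure D4:**
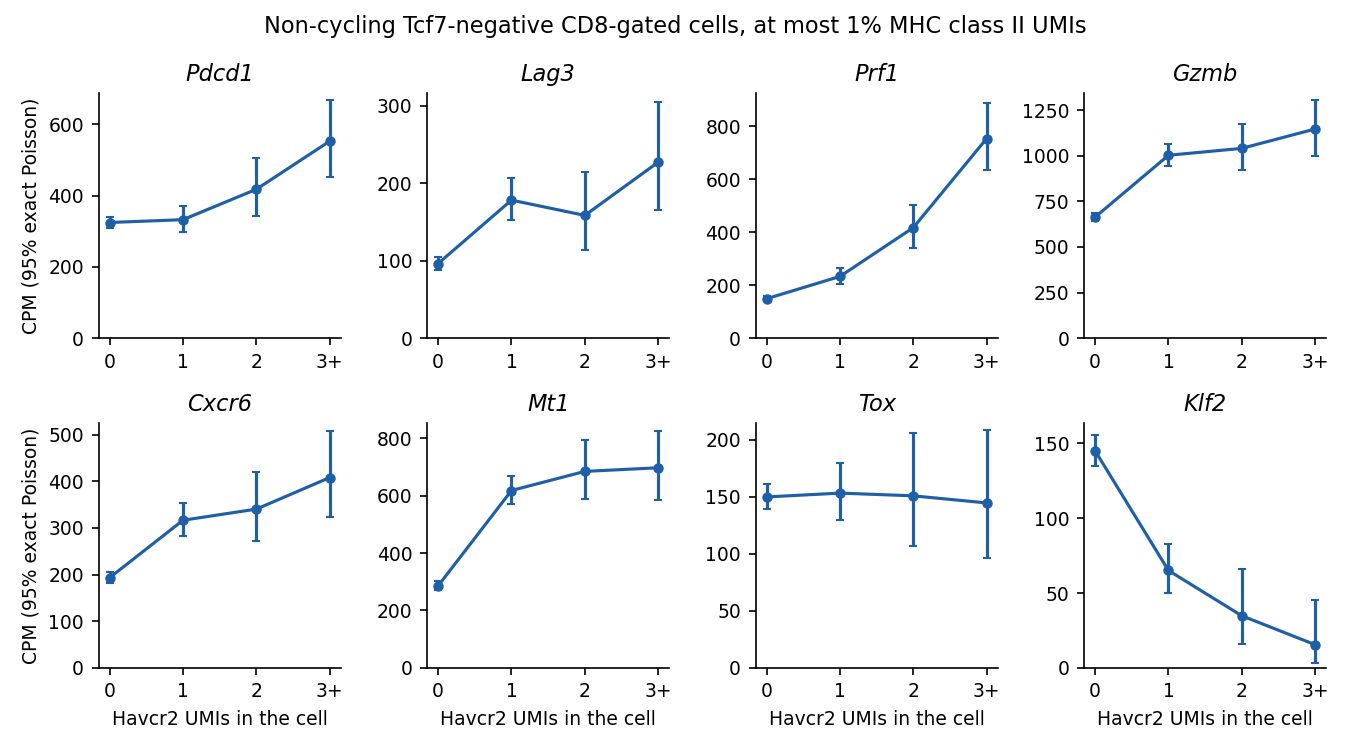
Level of 8 genes (y axes, CPM of summed UMIs with 95% exact Poisson intervals) by the number of Havcr2 UMIs in the cell (x axes) among non-cycling Tcf7-negative CD8-gated cells with at most 1% MHC class II UMIs. Prf1 and Pdcd1 are highest at 3 or more UMIs, Tox stays between 145 and 153 CPM, and Klf2 is lowest at 3 or more.

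The cells were also set beside the 3 other parts of the CD8 gate that are most like them, with at most 1% MHC class II in each. These were 374 Tcf7-positive, 967 cycling and 536 Gzmk-positive non-cycling cells without Havcr2, and 93 cells of the whole gate were both Tcf7-positive and cycling. Their depth differed too, with median UMI counts of 3627, 4677 and 2661 before the MHC class II limit, and its part in the folds was not tested. The Tcf7-positive and cycling cells were chosen for genes that the Havcr2-positive cells were chosen to lack. Folds of memory genes against the former, and of Ezh2 against the latter, may therefore partly follow from that choice. Against the Tcf7-positive cells, in 5 libraries that held at least 20 cells of each kind, Pdcd1 was 2.18-fold, Gzmb 3.18-fold and Mt1 4.60-fold higher in the Havcr2-positive cells in 5 of 5 libraries, and Il7r (0.265), Klf2 (0.226), Lef1 (0.311) and Slamf6 (0.333) were lower in 5 of 5. Against cycling cells over 7 libraries, Lag3 (1.76) and Cd244 (1.84) were higher in 7 of 7 and Ezh2 (0.288) was lower in 7 of 7, while Il7r (0.871) and Slamf6 (1.06) went both ways. Against the Gzmk-positive cells, which were chosen for Gzmk, Tnfrsf9, which encodes the costimulatory receptor 4-1BB, was higher at 2.26 and Cxcr6 at 2.18, each in 7 of 7 libraries. Bcl2 (0.545), Eomes (0.602) and Slamf6 (0.441) were lower than in the Gzmk-positive cells in 7 of 7, and Gzmb (1.43) was higher in 4 of 7. Tox had folds of 1.63, 1.01 and 0.97 against the Tcf7-positive, cycling and Gzmk-positive cells.

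**Figure D5:**
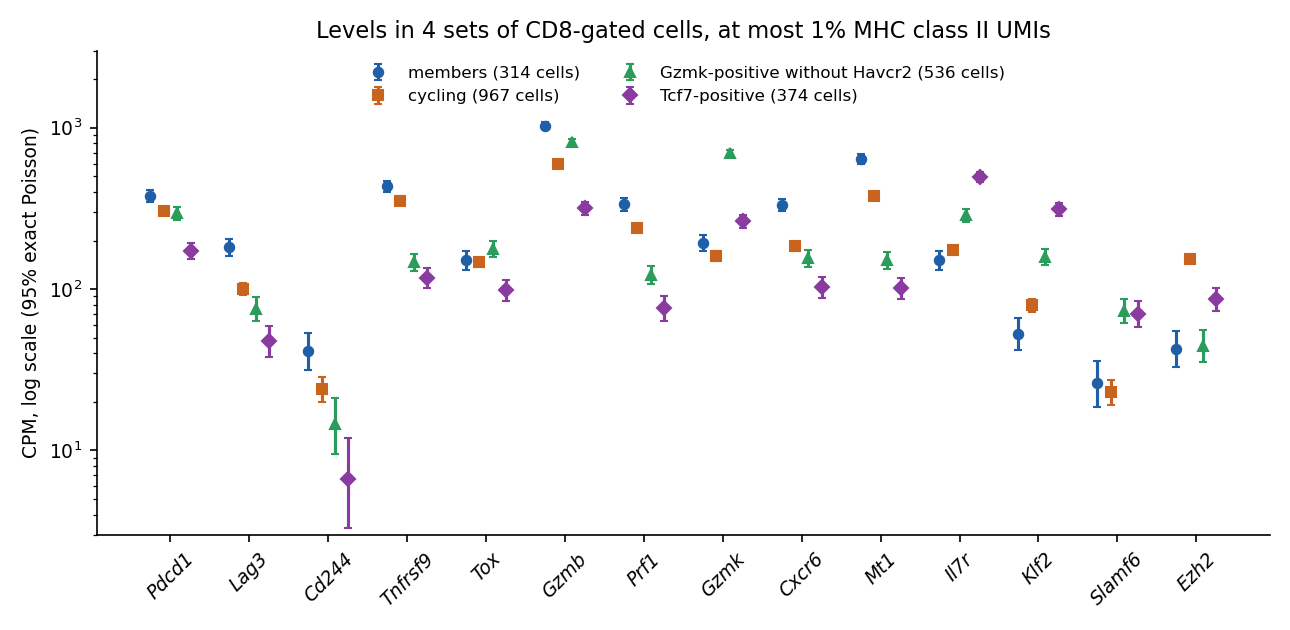
Level of 14 genes (y axis, CPM of summed UMIs, log scale, 95% exact Poisson intervals) in 4 sets of CD8-gated cells with at most 1% MHC class II UMIs. The Havcr2-positive cells have 181 CPM of Lag3 against 47.7 to 101 CPM in the other sets, and 152 CPM of Il7r against 174 to 498 CPM.

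Markers of other cell types were summed in the cells with at most 1% MHC class II. The 20 macrophage and monocyte markers summed to 3416 CPM in the Havcr2-positive cells (library range 1515 to 17427 CPM), 3067 CPM in the remaining CD8-gated cells (1574 to 8269 CPM) and 4743 CPM in the B cells (2223 to 21491 CPM), and no marker of the list was at 0. Their median fold was 1.36 and none of 20 was called, while all 20 were above 1. Against the counterparts 1 of 20 was called, Fcgr3, which encodes an Fc receptor, at 1.59 (48 UMIs), where 0.536% of all genes were called higher. With all cells the 1 called was Ly86 at 1.63, where 0.746% of all genes were. The part of such RNA in the folds of genes shared with macrophages, such as Cybb (2.17, called), was not tested. The 12 dendritic cell markers summed to 849 against 929 CPM, with 4 markers at 0 in the Havcr2-positive cells. With all cells these sums were 7641 against 3745 CPM. In the B cells, with a median MHC class II share of 2.32%, the same list summed to 23150 CPM. The 1% limit took out the cells with most MHC class II UMIs. The low sums without those cells therefore cannot show that dendritic cell RNA was absent. Of the 6 gamma delta T cell markers, which summed to 132 against 144 CPM, 2 were at 0. The 6 regulatory T cell markers, which include genes of activated CD8 T cells, summed to 1079 against 860 CPM, the 11 NK cell markers to 693 against 634 CPM, the 10 neutrophil markers to 325 against 401 CPM, and the 8 B cell markers to 83.4 against 106 CPM. The 8 tumor and stromal markers summed to 47.6 against 33.9 CPM and the 7 red blood cell and platelet markers to 31.0 against 30.8 CPM. None of 19 heat shock and immediate early genes, which rise when tissue is dissociated, was called (median fold 0.94), nor any against the counterparts. With all cells 2 of 20, Fosb (1.54) and Zfp36 (1.61), were called higher against the counterparts, where 0.746% of all genes were. Against the remaining cells there was no call among 11 costimulatory receptors (1.16) or 16 genes of T cell receptor signalling (1.08).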

How the data were processed

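UMI counts of every library were deposited by the authors in 1 matrix. The submitters' processing notes name Cell Ranger 2.1.1, Seurat and the build mm10, and the matrix header gives Cell Ranger 3.0.2. Aligner settings, annotation and any equalizing of reads between libraries: not given in the sources used here. Barcodes were kept if they had over 200 and under 5000 detected genes, with mitochondrial UMIs no higher than 10%. No doublet caller was applied. The members and the 26 gene lists were chosen with earlier results of these data known. Folds are UMIs observed over expected within the library, for genes of at least 10 CPM, and at least 20 cells of both kinds were needed for a library to give a direction. The text names the 15 highest and 15 lowest called genes, called genes of the lists, genes needed to describe a list, and Pdcd1, Tox, Lag3, Gzmb, Gzmk, Ifng, Slamf6, Ezh2 and Bcl2l11; Cybb, Lamp2, Xcr1 and other genes of the MHC class II subset were chosen after their values were seen. Thinning used a fixed seed. The fold calculation was tested on simulated data. Python 3.11.15, numpy 2.4.6, scipy 1.17.1 and pandas 2.3.3 were used.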

Additional observations from a re-analysis of the deposited data

How the results depend on the processing

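The number of cells was 409, and 307 to 408 with any 1 library left out; it was 112 with Havcr2 of at least 2 UMIs, when 542 genes were higher and 953 lower because only 1 library gave a direction. The 23 higher and 223 lower genes became 21 to 66 and 221 to 294 with 1 library left out. The higher count was 41 without library 3, 41 without library 7 and 66 without library 8. It was 12 without cells over 0.5% macrophage and monocyte UMIs, 7 with a fold of 2, and 12 (142 lower) after thinning to 1000 UMIs. With a minimum of 50 CPM, 6 were higher and 70 lower. With 50 cells of both per library, which left 2 libraries, they were 264 and 412, and with the fold alone 309 and 497. Libraries with Y-linked transcripts gave 180 and 400, and those without gave 145 and 675, from fewer libraries. Against the Havcr2-negative counterparts, 55 were higher and 65 lower; without the cells over 1% MHC class II, 39 and 98, and, matched by depth as well, 31 and 67. Without those cells and with 1 library left out, the counts were 19 to 48 higher and 236 to 329 lower against the remaining cells, and 34 to 75 and 96 to 171 against the counterparts; of 31 and 16 named genes called, 1 (Ccl4) and 2 (Pkm and Pgam1) lost the call. Leaving out cells above 1% MHC class II, single libraries left out beside it, depth matching, Y-linked transcripts and the library-matched folds by Havcr2 UMIs were chosen as alternatives after seeing the data.

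Of 1092 values of named genes called, 1078 kept their direction. A call already required the same direction in every library that counted, so leaving out 1 library could hardly reverse it. The gate also set cell cycle genes low against the remaining cells. The count was thus partly set in advance and is a description only. Hfe reversed without the cells over 1% MHC class II (0.912), against the counterparts without them (0.781), and with depth matching added (0.899). Cell cycle genes with 1 UMI in the 409 cells reversed against the counterparts: Shcbp1 (2.15) and Mxd3 (2.95). Without the cells over 1% these were Shcbp1 (8.98), Mxd3 (2.95), Esco2 (1.55) and Sgo2a (1.15). With depth matching added they were Shcbp1 (6.86), Mxd3 (7.57), Esco2 (1.33) and Sgo2a (1.59), and Ezh2 (1.005) reversed as well. The cause was not tested. No pairing between treatment groups was possible because the labels do not tie the libraries to samples. Havcr2-positive and comparison cells were matched within libraries.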
